A study of Mus musculus with 2 samples.

Results

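Eph receptors, their ephrin ligands, semaphorins and their plexin receptors were examined in mouse breast tumour tissue. Members were all rows of the count table whose symbols follow the naming pattern of these 4 families and whose counts in both libraries together reached 20. This rule gave 48 of the 35602 gene symbols in the table, 11 Eph receptors, 8 ephrins, 20 semaphorins and 9 plexins. The rule uses abundance but not the difference between the libraries. Another 3 family rows lay under the minimum, Epha10 with 3 and 7 counts and Epha5 and Epha6 with 0 in both libraries, and the members just above it were Sema5b with 30 counts in all and Epha7 with 35. A PD-1 inhibitor, which blocks a receptor that restrains activated T cells, was injected into the peritoneum in both groups, and 1 group was given acupuncture as well. Each group was 1 sequenced library of messenger RNA. The mouse strain, age, tumour line, acupuncture points and schedule, and whether animals were pooled are unknown from the labels, and no untreated or acupuncture-only tumour was analysed here.

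Eph receptors are receptor tyrosine kinases bound by ephrins on neighbouring cells, and the contact signals into both cells. Ephrins of the A class are held in the membrane by a lipid anchor, and those of the B class span it. Semaphorins are secreted (class 3) or membrane-bound ligands, most of which act through plexins, and secreted ones mostly need a neuropilin as partner. The families were described first in axon guidance, and they also steer blood vessel growth, epithelial boundaries, tumour cell migration and the movement of leukocytes.

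The library from the group without acupuncture, called the inhibitor-only library here, held 105728292 counts, and the acupuncture library held 60752043, a depth ratio of 1.74. Levels are counts per 1000000 (CPM) of library sizes scaled by edgeR's TMM method, and a ratio is the level in the acupuncture library over that in the inhibitor-only library. With 1 library per group there is no replicate check and no p-value, and the exact 95% interval beside a ratio covers counting error only, since reads are not independent molecules. All differences below are between these 2 libraries. In bulk tissue, fewer cells of a type and less RNA per cell cannot be told apart. The tissue content of the libraries differed. All 10 T cell markers, all 8 B cell markers, all 8 fat markers and all 8 skeletal muscle markers were at least 2-fold higher with acupuncture, their summed levels going from 25.9 to 149.8, 2.80 to 123, 407 to 1722 and 174.9 to 2016 CPM. Of 6 lymph node stroma markers 5 were higher, 28.3 and 210.6 CPM in sum. All 12 epithelial markers of the labelled tissue were detected in the inhibitor-only library, where they summed to 4051 CPM, against 2747 with acupuncture, where Elf5 had 0 counts against 53. The 12 endothelial markers summed to 395.4 and 286.7 CPM, none of them at 0.

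Few of the 48 guidance genes differed strongly. At least 2-fold higher with acupuncture, with an interval above 1, were 3 members, Sema3d, Sema3c and Epha8, or 6.25% of them, where 9.21% of the 18687 genes with 20 or more counts passed the same limit. At least 2-fold lower were 2 members, Efna3 and Sema4g, or 4.17%, against 4.9% of all those genes. Neither share of members was above the background. Without the fold limit, the interval lay above 1 for 13 members (27.1%, background 35.1%), below 1 for 25 members (52.1%, background 34.8%), and held 1 for 10. Their median log2 ratio was -0.19, beside 0.0003 over all genes tested. Summed over members, the level was 2170 CPM in the inhibitor-only library and 1766 in the acupuncture library, a ratio of 0.814 (0.808 to 0.82).

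The calls near the limit depend on the scaling. With library sizes taken as total counts, 5 members were higher (Sema3e and Epha3 joined) and 0 lower, where the main scaling gives 3 and 2. Of all genes tested, 10.4% were then higher and 4.12% lower. With the endothelial or the epithelial markers set to a median of 0, every ratio shifted upward, and the members' median became 0.30 or 0.37. Then 8 or 9 of 48 members were higher and 0 lower. Of all genes tested, 17.8% or 19.9% were higher and 2.08% or 1.85% lower. The median over all genes then moved to 0.49 or 0.56. Since a scaling shifts all genes alike, the members' median had to stay 0.19 below it under both.

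**Figure D1:**
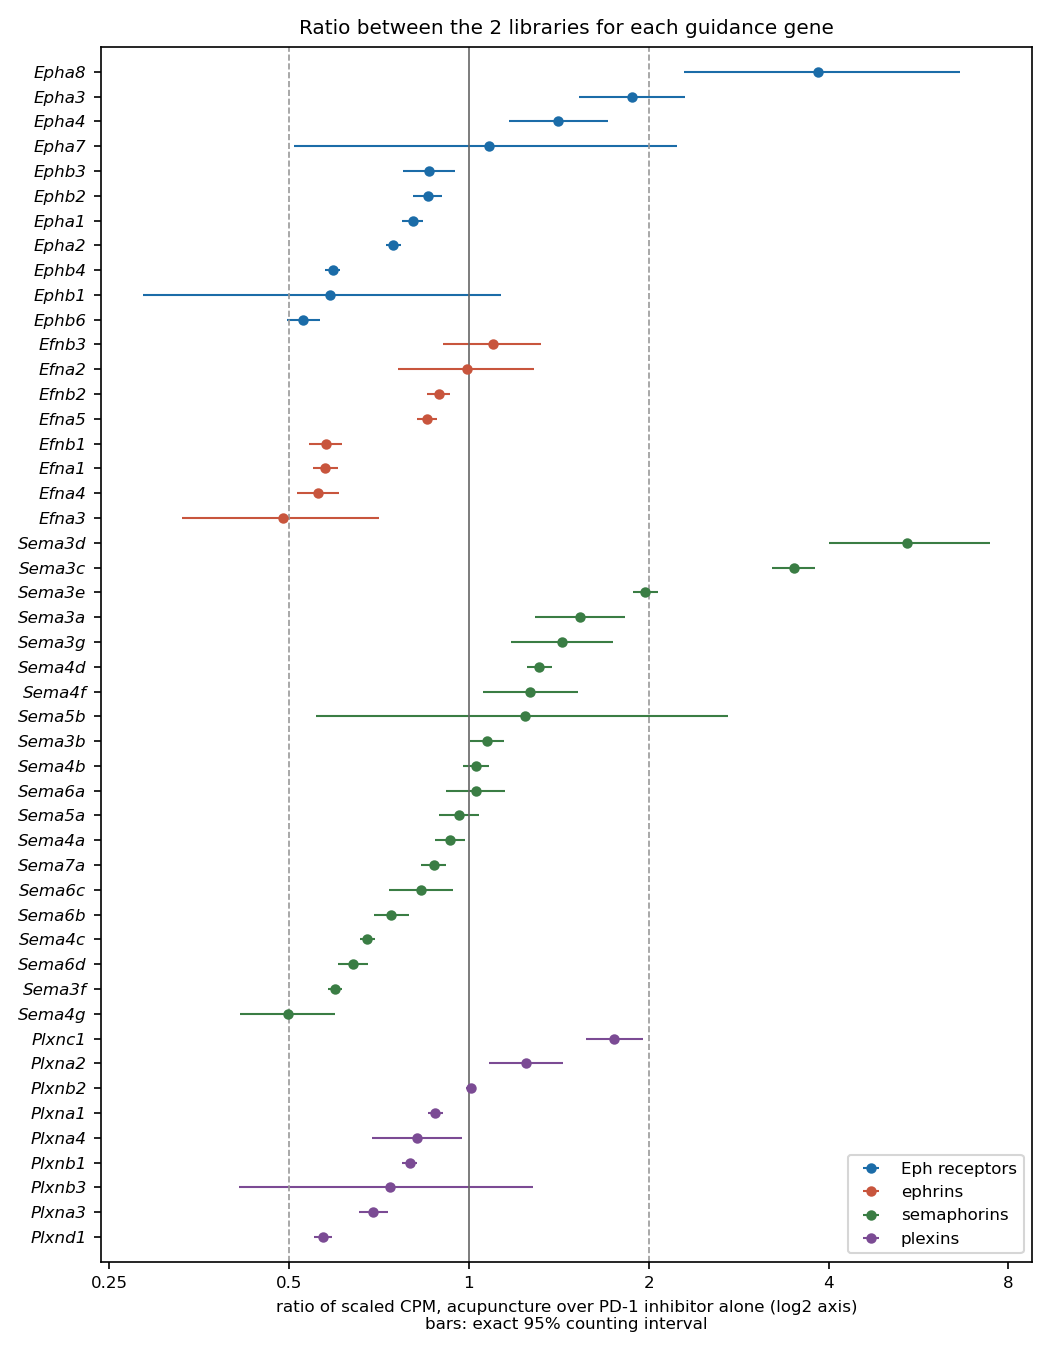
Ratio of scaled CPM, acupuncture over PD-1 inhibitor alone, on a log2 axis for each of the 48 genes, ordered by ratio within each family. Points are ratios, bars are exact 95% counting intervals and dashed lines mark 2-fold. Sema3d, Sema3c and Epha8 lie to the right of the dashed lines, Efna3 and Sema4g touch the left one, and most abundant members sit between 0.5 and 1 with short bars.

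Among Eph receptors, 1 of 11 was at least 2-fold higher (9.09%, background 9.21%) and 0 were lower (background 4.9%). Their median log2 ratio of -0.23 became 0.27 with the endothelial and 0.33 with the epithelial markers set to 0. The medians of all genes tested were then 0.49 and 0.56. In the main scaling, the interval lay below 1 for 6 (54.5%, background 34.8%) and above 1 for 3 (27.3%, background 35.1%). Levels per kilobase of coding length allow genes to be ranked within a library. Ephb4, the receptor of venous endothelium that is also made by mammary epithelium, stood first in the inhibitor-only library at 56.3 CPM per kilobase and second with acupuncture at 33.3. Epha2, a receptor abundant in many carcinomas, took the opposite places at 50.6 and 37.8 CPM per kilobase. Epha1, an epithelial receptor, came next in both at 22.5 and 18.1. The order of these levels cannot be set against variation between animals.

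All 5 EphB receptors had ratios under 1, from 0.529 to 0.859, and none of their intervals lay above 1 (background 35.1%). With the epithelial or endothelial markers set to 0, however, the highest ratio was 1.27 or 1.21. Ephb4 was at 168.3 CPM in the inhibitor-only library and 99.6 in the acupuncture library, 1.69-fold lower (1.64 to 1.74). Ephb6, a receptor whose kinase domain is inactive and which T cells also carry, was at 37.6 and 19.9 CPM, 1.89-fold lower (1.77 to 2.02). It was the lowest ratio of the receptors. The summed T cell markers were 5.78-fold higher in the same library, and their part in it was not tested. Ephb2 and Ephb3, which keep epithelial compartments apart in the gut, differed little, at ratios of 0.853 (0.807 to 0.903) and 0.859 (0.777 to 0.949). Ephb1 had 36 and 13 counts, and its interval held 1 (0.285 to 1.13).

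EphA receptors went both ways. The abundant Epha2 and Epha1 were lower, Epha2 at 148.2 and 110.7 CPM, a ratio of 0.747 (0.726 to 0.769), and Epha1 at 65.9 and 53.0 CPM, a ratio of 0.805 (0.772 to 0.839). Both turned to ratios above 1 when the epithelial or endothelial markers were set to 0. Scarcer receptors were higher. Epha8, known mainly from the nervous system, had 22 and 52 counts, 0.216 and 0.826 CPM, 3.84-fold higher (2.29 to 6.63). Epha3, found on mesenchymal cells, was at 1.78 and 3.34 CPM, 1.87-fold higher (1.53 to 2.30), and Epha4, which binds ephrins of both classes, at 2.33 and 3.29 CPM, 1.41-fold higher (1.17 to 1.71). Epha7, at 21 and 14 counts, had an interval from 0.509 to 2.23, so that no difference was detectable at this depth.

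Ephrins were the family with the lowest median, -0.51 on the log2 scale. It became -0.02 with the endothelial and 0.05 with the epithelial markers set to 0. The medians of all genes tested were then 0.49 and 0.56. In the main scaling, 1 of 8 ephrins was at least 2-fold lower (12.5%, background 4.9%) and 0 were higher (background 9.21%). The interval lay below 1 for 6 (75%, background 34.8%) and above 1 for 0 (background 35.1%). At a limit of 1.5-fold, 4 of 8 were lower, where 10.3% of all genes tested were, and 0 were higher, where 14.3% of all genes tested were. The levels per kilobase put Efna5 first (102.8 and 87.5 CPM per kilobase), Efna1 second (101.6 and 58.5) and Efnb2 after them (53.2 and 47.3) in both libraries. In the inhibitor-only library, Efna5 and Efna1 were nearly level, and with acupuncture they stood apart.

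Efna1, Efna3 and Efna4, A-class ligands, were lower together, and all 3 stayed at ratios under 1 with every scaling tried. These 3 were grouped after the values were seen. Efna1, the main partner of Epha2 and a gene induced by tumour necrosis factor in endothelium, was at 62.5 CPM in the inhibitor-only library and 35.95 in the acupuncture library, 1.74-fold lower (1.66 to 1.82). Efna4 was at 23.1 and 12.9 CPM, 1.79-fold lower (1.65 to 1.94). Efna3 was scarce, with 126 and 38 counts or 1.23 and 0.604 CPM, 2.04-fold lower (1.41 to 3.02), and its place past 2-fold was lost under 4 alternatives, at log2 ratios of -0.90 with total counts, -0.73 with the deeper library thinned, -0.46 with the epithelial and -0.52 with the endothelial markers set to 0. The other A-class ligands differed less. Efna5 was at 70.3 and 59.9 CPM (ratio 0.851, 0.818 to 0.886), which turned to ratios above 1 with the epithelial or endothelial markers set to 0, and Efna2 at 1.54 and 1.53 CPM, with an interval of 0.761 to 1.29.

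Near neighbours among the members did not always have like ratios. In the RefSeq gene table for GRCm38.p6, 3 protein-coding genes lie between Ephb2 and Epha8 on chromosome 4, with ratios of 0.853 and 3.84. The 3 ephrin genes Efna1, Efna3 and Efna4 are neighbours too. All lie on chromosome 3, with 0 other protein-coding genes between Efna1 and Efna3 or between Efna3 and Efna4. Their promoters, from 250 bases before to 50 after the first start listed for each gene, are printed so that these neighbours with like ratios can be compared. They are taken from RefSeq on GRCm38.p6, at chr3:89280902-89281201 for Efna1, chr3:89322890-89323189 for Efna3 and chr3:89337979-89338278 for Efna4, all on the minus strand and read 5′ to 3′. Capitals mark GC boxes (GGGCGG, or CCGCCC on the other strand) and the hypoxia response core (ACGTG, or CACGT on the other strand).
Efna1: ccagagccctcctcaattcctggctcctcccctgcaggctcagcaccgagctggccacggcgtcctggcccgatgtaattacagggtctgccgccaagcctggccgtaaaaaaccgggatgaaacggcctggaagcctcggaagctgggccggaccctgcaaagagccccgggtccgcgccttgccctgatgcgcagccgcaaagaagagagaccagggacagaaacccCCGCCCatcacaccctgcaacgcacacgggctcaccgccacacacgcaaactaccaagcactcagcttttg
Efna3: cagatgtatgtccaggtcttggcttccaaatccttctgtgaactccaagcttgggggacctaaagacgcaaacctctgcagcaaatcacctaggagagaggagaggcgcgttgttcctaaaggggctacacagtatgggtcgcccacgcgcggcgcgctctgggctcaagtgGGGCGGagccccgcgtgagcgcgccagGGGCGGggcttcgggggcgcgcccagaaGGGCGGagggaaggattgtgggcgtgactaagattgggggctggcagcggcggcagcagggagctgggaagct
Efna4: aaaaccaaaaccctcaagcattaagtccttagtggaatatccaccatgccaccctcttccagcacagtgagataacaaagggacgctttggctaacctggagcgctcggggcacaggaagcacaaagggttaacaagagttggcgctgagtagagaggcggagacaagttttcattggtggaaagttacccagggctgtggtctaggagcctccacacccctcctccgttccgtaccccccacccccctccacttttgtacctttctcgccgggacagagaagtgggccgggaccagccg
The window of Efna1 held 1 GC box, that of Efna3 held 3 and that of Efna4 held 0. The hypoxia core was in 0 of the 3 windows. In the same libraries, all 10 hypoxia markers had intervals below 1 and 9 of them were at least 2-fold lower with acupuncture, from 5492 to 2559 CPM in sum, and their part in the ephrin ratios was not tested.

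B-class ephrins were lower or level. Efnb1, an X-linked ligand that takes part in tissue boundaries, was at 34.9 CPM in the inhibitor-only library and 20.1 in the acupuncture library, 1.74-fold lower (1.63 to 1.85). Efnb2, the arterial ligand of Ephb4, was at 53.6 and 47.7 CPM, 1.12-fold lower (1.07 to 1.17). Its ratio was above 1 with the epithelial or endothelial markers set to 0, whereas that of Ephb4 stayed below 1 with both. Efnb3, mostly neuronal, was at 2.74 and 3.004 CPM with an interval that held 1 (0.906 to 1.32).

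**Figure D2:**
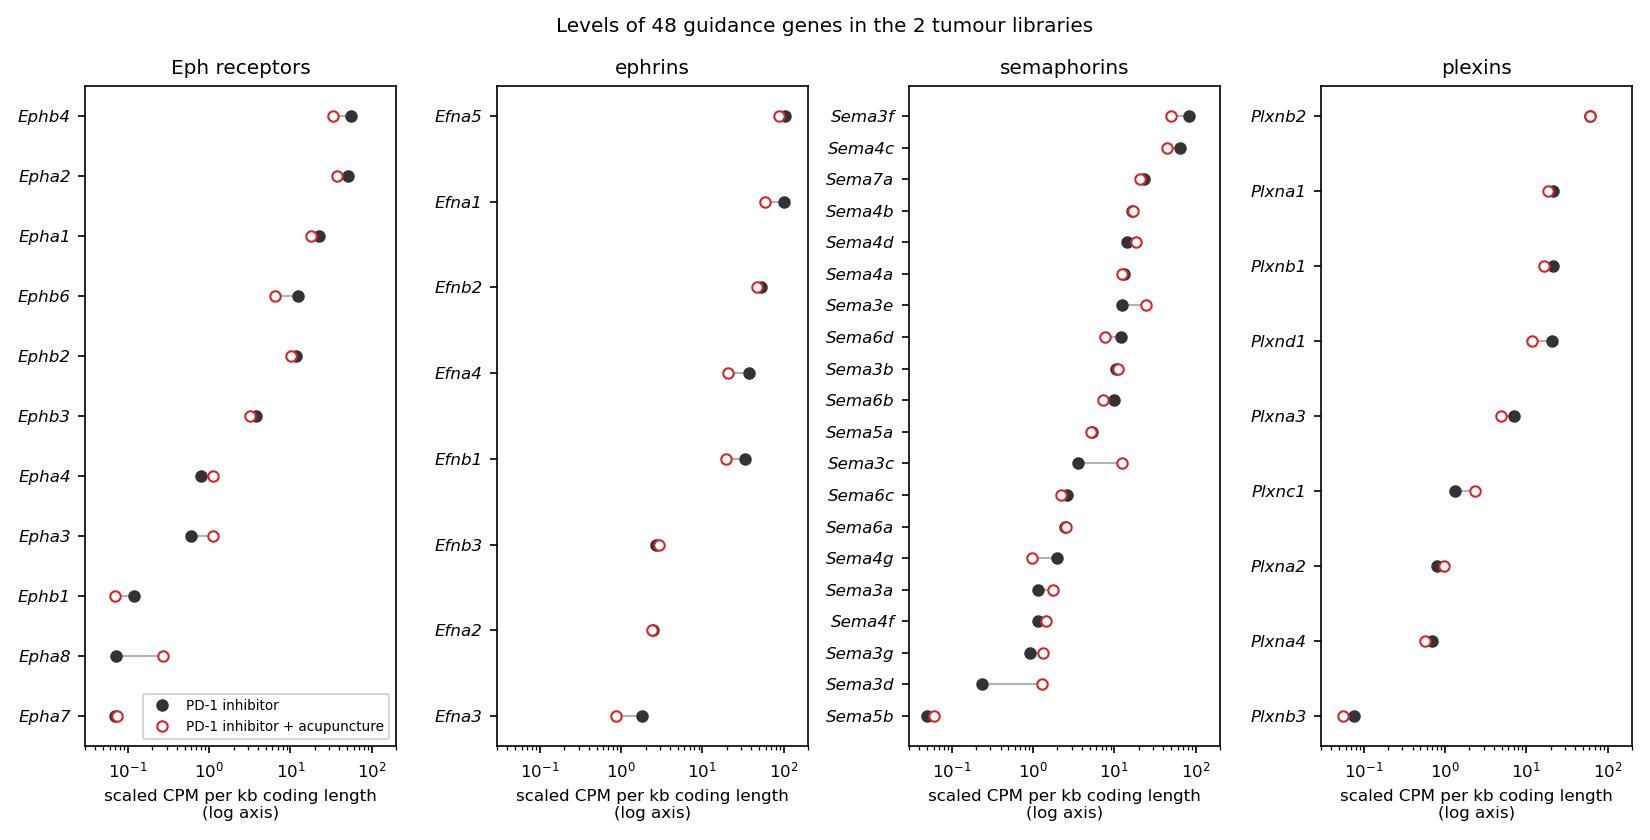
Scaled CPM per kilobase of coding length on a log axis for each gene, filled points for the inhibitor-only library and open points for the acupuncture library, in 1 panel per family. The order of levels is much alike in both libraries. Sema3c, Sema3d and Epha8 show the widest gaps, and the most abundant ephrins, Efna5 and Efna1, stand near 100 in the filled points.

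Of 20 semaphorins, 2 were at least 2-fold higher (10%, background 9.21%) and 1 at least 2-fold lower (5%, background 4.9%), with a median log2 ratio of 0.04. The interval lay above 1 for 8 (40%, background 35.1%) and below 1 for 8 (40%, background 34.8%). With the epithelial markers set to 0 the median became 0.60, beside 0.56 over all genes tested. The intervals then lay above 1 for 15 and below 1 for 2. With the endothelial markers set to 0 the median became 0.53, beside 0.49 over all genes tested, with 14 above and 4 below. The shares of such intervals over all genes were not computed with these scalings. Their classes differed in sign. Class 3, the secreted ligands, had a median of 0.61 with 6 of 7 intervals above 1 (background 35.1%). The count was 6 of 7 under all 5 other scalings tried. Those scalings move ratios upward or, with DESeq2 size factors, hardly at all, so they could not lower this count. Class 6, membrane ligands of A-type plexins, had a median of -0.35 with 3 of 4 intervals below 1 (background 34.8%). This median turned to 0.15 with the endothelial and 0.21 with the epithelial markers set to 0, beside 0.49 and 0.56 over all genes. The summed counts of class 3 went the other way from its median, at a ratio of 0.908 (0.89 to 0.926), because Sema3f alone held most of them.

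The secreted semaphorins with the largest ratios were Sema3d and Sema3c. Sema3d, which guides endothelial and neural crest cells through neuropilins, had 56 and 187 counts, 0.549 CPM in the inhibitor-only library and 2.97 in the acupuncture library, 5.42-fold higher (4.0 to 7.44). Sema3c, a ligand needed for the cardiac outflow tract and made by several carcinomas and by fat tissue, was at 8.13 and 28.4 CPM, 3.50-fold higher (3.22 to 3.80), and went from place 12 of 20 to place 7 by level per kilobase. Sema3e, a ligand that binds Plxnd1 without a neuropilin and restrains vessel growth, was at 29.0 and 57.2 CPM, 1.97-fold higher (1.88 to 2.07), just short of the limit. It moved from place 7 to place 3 of 20. Sema3a, the founding axon repellent, was at 2.68 and 4.12 CPM, 1.53-fold higher (1.29 to 1.82).

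Sema3d, Sema3a, Sema3e and Sema3c lie near each other on mouse chromosome 5, in this order. In the RefSeq table for GRCm38.p6, 0 other protein-coding genes lie between Sema3d and Sema3a, 3 between Sema3a and Sema3e and 15 between Sema3e and Sema3c. Summed over these 4 genes, the level was 40.4 CPM in the inhibitor-only library and 92.7 in the acupuncture library, 2.30-fold higher (2.21 to 2.39). The other 3 class 3 genes lie elsewhere, and their sum was 221.3 and 144.9 CPM, a ratio of 0.655 (0.639 to 0.671). The split by chromosome was made after the values were seen. All 4 genes of chromosome 5 had ratios above 1 under each of the 6 scalings, from 1.53 to 8.01. The other scalings move ratios upward or hardly at all, so they could not have turned these directions.

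The promoters of these 4 genes are shown for comparison with one another, in the order of the chromosome and with the same capitals. They are RefSeq windows on GRCm38.p6, plus strand, at chr5:12382916-12383215 for Sema3d, chr5:13396534-13396833 for Sema3a, chr5:14025026-14025325 for Sema3e and chr5:17574566-17574865 for Sema3c.
Sema3d: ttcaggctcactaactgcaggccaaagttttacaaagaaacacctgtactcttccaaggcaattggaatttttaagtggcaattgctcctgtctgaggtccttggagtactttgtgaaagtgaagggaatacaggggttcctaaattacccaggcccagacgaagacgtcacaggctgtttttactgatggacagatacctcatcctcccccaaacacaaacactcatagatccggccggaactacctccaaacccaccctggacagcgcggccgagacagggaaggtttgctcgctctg
Sema3a: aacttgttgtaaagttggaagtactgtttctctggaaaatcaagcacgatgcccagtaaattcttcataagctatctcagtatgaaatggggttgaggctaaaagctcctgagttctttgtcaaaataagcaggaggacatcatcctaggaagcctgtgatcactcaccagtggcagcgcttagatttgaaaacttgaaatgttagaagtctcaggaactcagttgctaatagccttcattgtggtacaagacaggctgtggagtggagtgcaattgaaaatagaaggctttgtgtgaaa
Sema3e: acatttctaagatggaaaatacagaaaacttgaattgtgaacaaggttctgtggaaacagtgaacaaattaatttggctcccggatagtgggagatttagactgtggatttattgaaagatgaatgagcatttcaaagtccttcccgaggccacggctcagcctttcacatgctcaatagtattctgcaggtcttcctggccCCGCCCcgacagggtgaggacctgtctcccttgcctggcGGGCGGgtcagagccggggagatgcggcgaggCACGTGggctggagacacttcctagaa
Sema3c: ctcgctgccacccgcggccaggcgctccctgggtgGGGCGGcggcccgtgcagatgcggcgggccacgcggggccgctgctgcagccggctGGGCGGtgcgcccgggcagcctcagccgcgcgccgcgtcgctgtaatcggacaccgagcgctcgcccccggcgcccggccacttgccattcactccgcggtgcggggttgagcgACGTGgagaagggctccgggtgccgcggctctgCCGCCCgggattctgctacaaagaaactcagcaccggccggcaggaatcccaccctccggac
The windows have little in common. GC content was 49.7% for Sema3d, 41.3% for Sema3a, 50.7% for Sema3e and 75.7% for Sema3c. Sema3e held 2 GC boxes and 1 palindrome that reads as the hypoxia core on both strands, and Sema3c held 3 GC boxes and 1 core. Neither motif was in the windows of Sema3d and Sema3a.

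Of the remaining class 3 genes, Sema3f was the most abundant semaphorin per kilobase in both libraries. A ligand of Nrp2 that repels endothelial and tumour cells, it was at 195.7 CPM in the inhibitor-only library and 116.6 in the acupuncture library, 1.68-fold lower (1.63 to 1.72). Its ratio stayed below 1 with the endothelial and epithelial markers set to 0. Sema3b, a neighbour of Sema3f on chromosome 9 with 3 protein-coding genes between them, was at 23.5 and 25.2 CPM, a ratio of 1.07 (1.01 to 1.14). Sema3g, found in arterial endothelium and fat, was at 2.16 and 3.10 CPM, 1.43-fold higher (1.17 to 1.74). Beside these ratios, 7 of 10 fibroblast markers had intervals above 1 (7582 and 10191 CPM in sum), as did all 8 fat markers, and none of these markers was at 0. Their part in the semaphorin ratios was not tested.

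Class 4 semaphorins, membrane ligands with roles in immunity and epithelia, went both ways. Of 6, 0 were at least 2-fold higher (background 9.21%) and 1 was lower (background 4.9%). Their median log2 ratio of -0.03 became 0.53 with the epithelial and 0.46 with the endothelial markers set to 0. The medians of all genes tested were then 0.56 and 0.49. Sema4c, a ligand of Plxnb2, was second among semaphorins per kilobase in both libraries, at 162.8 CPM in the inhibitor-only library and 110.0 in the acupuncture library, 1.48-fold lower (1.44 to 1.52). Sema4d, known as CD100 on T cells and a ligand of Plxnb1, was at 36.7 and 48.1 CPM, 1.31-fold higher (1.25 to 1.37), beside the summed T cell markers, whose part in it was not tested. Sema4a, found on dendritic cells and on helper T cells, was at 30.4 and 28.3 CPM, a ratio of 0.93 (0.877 to 0.986). Sema4b was at 40.8 and 41.9 CPM, and its interval held 1 (0.978 to 1.08). Sema4f was at 2.68 and 3.40 CPM, 1.27-fold higher (1.05 to 1.52). Sema4g was at 4.95 and 2.46 CPM, 2.01-fold lower (1.67 to 2.42), and was no longer past 2-fold under total counts, upper quartile scaling or thinning, nor with the epithelial or endothelial markers set to 0, at log2 ratios of -0.44 and -0.51.

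No member of classes 5 to 7 was past 2-fold (background 9.21% higher and 4.9% lower). Sema5a, a transmembrane ligand of Plxnb3, was at 17.1 and 16.5 CPM and Sema5b had 17 and 13 counts, both with intervals that held 1. Sema6d, which signals through Plxna1 in the heart and in immune cells, was at 39.0 CPM in the inhibitor-only library and 24.95 in the acupuncture library, 1.56-fold lower (1.47 to 1.66). Sema6b had a ratio of 0.741 (0.692 to 0.794), Sema6c of 0.832 (0.736 to 0.94) and Sema6a of 1.03 (0.917 to 1.15). Sema7a, a lipid-anchored ligand of Plxnc1 and of integrins, was at 46.6 and 40.7 CPM, 1.14-fold lower (1.09 to 1.20), and turned to a ratio above 1 with the endothelial or epithelial markers set to 0.

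**Figure D3:**
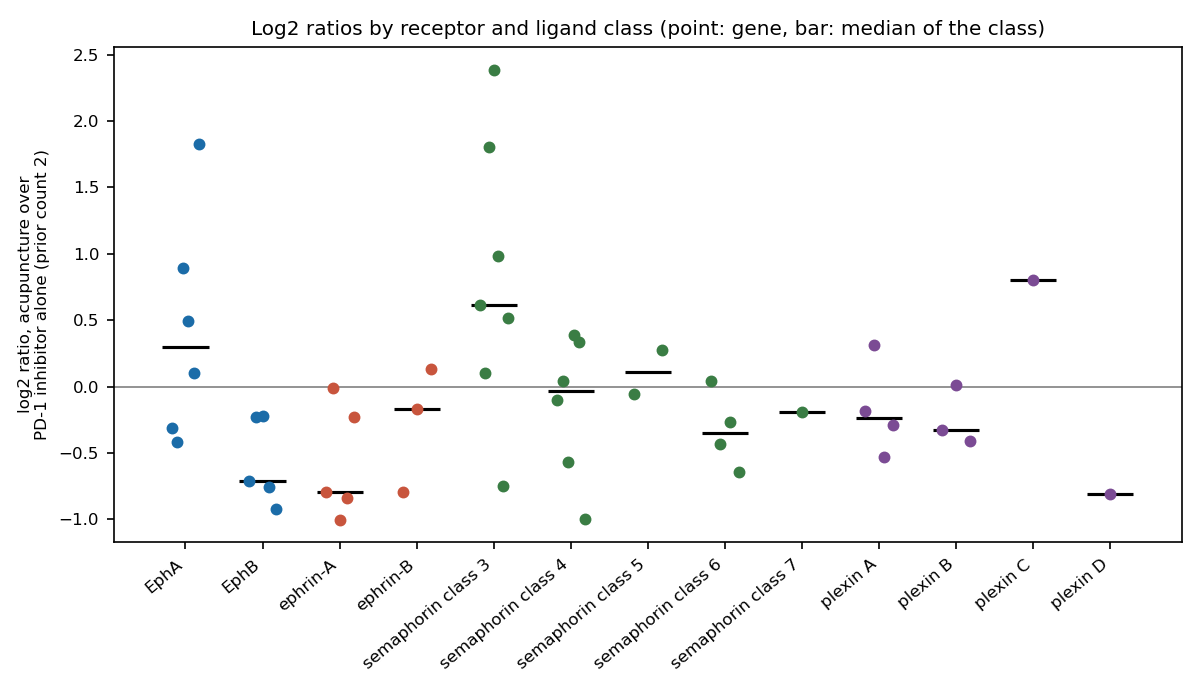
Log2 ratio with a prior count of 2, acupuncture over PD-1 inhibitor alone, by receptor or ligand class. Points are genes and bars are class medians. Class 3 semaphorins reach from -0.75 to 2.39, whereas all EphB and all ephrin-A points lie below 0. With the endothelial or epithelial markers set to 0, some of these points lie above it.

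Plexins had 0 of 9 members past 2-fold in either direction (background 9.21% higher and 4.9% lower). Their median log2 ratio of -0.29 became 0.21 with the endothelial and 0.27 with the epithelial markers set to 0. The medians of all genes tested were then 0.49 and 0.56. Plxnb2, a receptor of class 4 semaphorins found in epithelium and macrophages, was first by level per kilobase (60.7 and 61.1 CPM per kilobase) and was level between the libraries at 335.5 and 337.6 CPM, a ratio of 1.01 (0.989 to 1.02). Plxnb1, the receptor of Sema4d, was at 134.0 and 106.6 CPM, 1.26-fold lower (1.22 to 1.29). Plxna1, a partner of neuropilins, was at 120.9 and 106.3 CPM, 1.14-fold lower (1.10 to 1.17). For Plxna1 and Plxnb1 the ratio exceeded 1 with the endothelial or epithelial markers set to 0. Plxnb2 was then no longer level, at log2 ratios of 0.50 and 0.57.

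The plexins that stood furthest apart were Plxnd1 and Plxnc1. Plxnd1, the endothelial receptor of Sema3e, was at 120.2 CPM in the inhibitor-only library and 68.5 in the acupuncture library, 1.76-fold lower (1.70 to 1.82), and stayed below 1 under every scaling tried. Plxnc1, carried by leukocytes and bound by Sema7a, was at 6.30 and 11.03 CPM, 1.75-fold higher (1.57 to 1.95). T and B cell markers were higher in the same library, whereas macrophage and neutrophil markers had median log2 ratios of -0.30 and -2.55. The part of these cells in the Plxnc1 ratio was not tested. Of the other A-type plexins, receptors of axon guidance, Plxna3 was 1.45-fold lower (1.37 to 1.53), Plxna4 1.22-fold lower (1.03 to 1.45) and Plxna2 1.25-fold higher (1.08 to 1.44). The lowest ratio of an A-type plexin was 1.02 with the epithelial and 0.975 with the endothelial markers set to 0. An antisense gene of Plxna4 has its own row in the table, and since the strand setting is not given, their reads may be mixed. Plxnb3, at 44 and 20 counts, had an interval from 0.412 to 1.28.

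Set side by side, 3 semaphorins and 1 known receptor of each had ratios on opposite sides of 1. Sema3e was 1.97-fold higher while its receptor Plxnd1 was 1.76-fold lower, and this pair stayed on opposite sides under every scaling tried. The other scalings move ratios upward or hardly at all, so only the direction of Plxnd1 could have turned. Sema4d had a ratio of 1.31 and Plxnb1 of 0.795, and Sema7a had 0.874 where Plxnc1 had 1.75. Other receptors lay on the same side as their ligand. Cd72, also a receptor of Sema4d, had 1.62, and Itgb1, also a receptor of Sema7a, had 0.801. Sema3f and Nrp2 had 0.596 and 0.867, and Sema6d and Plxna1 had 0.640 and 0.879. In the ephrin system, Efna1 and Epha2 both had ratios under 1, at 0.575 and 0.747, as had Efnb2 and Ephb4, at 0.89 and 0.592. These directions turned in part with the epithelial or endothelial markers set to 0. Plxnb1 then had log2 ratios of 0.23 and 0.16 and Sema7a of 0.37 and 0.30, so that both were above 0 like their partners. Epha2 was then at 0.14 and 0.07 while Efna1 stayed at -0.23 and -0.30, and Efnb2 was at 0.40 and 0.33 while Ephb4 stayed at -0.19 and -0.26. No test of these pairs was possible.

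Neuropilins, the partners of plexins for secreted semaphorins, differed little in the main scaling. Nrp1 was at 90.5 CPM in the inhibitor-only library and 103.5 in the acupuncture library, a ratio of 1.14 (1.11 to 1.18). Nrp2 was at 200.9 and 174.2 CPM, a ratio of 0.867 (0.847 to 0.887). With the epithelial and endothelial markers set to 0, the log2 ratios were 0.76 and 0.69 for Nrp1, and turned to 0.36 and 0.29 for Nrp2. Among 12 measured semaphorin co-receptors and alternative receptors, the neuropilins included, 0 were past 2-fold in either direction (background 9.21% higher and 4.9% lower). Their median log2 ratio was -0.01. The integrin chain Itgb1, a receptor of Sema7a, was at 1028 and 823.5 CPM, a log2 ratio of -0.32 that turned to 0.24 and 0.17 under the same settings. The largest differences among them were those of the adhesion protein L1cam, a partner of Nrp1 in Sema3a responses, at 10.4 and 19.3 CPM, 1.85-fold higher (1.71 to 2.01), and of Cd72, a receptor of Sema4d on B cells, at 17.4 and 28.2 CPM, 1.62-fold higher (1.51 to 1.73). The summed B cell markers, 43.9-fold higher in the same library, are given beside it, and their part in it was not tested. The myeloid receptor Trem2, which macrophages carry and which has been tied to semaphorin 6D signalling through plexin A1, had the lowest ratio of the list, 1.60-fold lower (1.501 to 1.7).

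Cytoplasmic effectors differed moderately at most. Of 39 measured, 0 were past 2-fold in either direction (background 9.21% higher and 4.9% lower). Their ratios ran from 0.595 to 1.51, with a median log2 ratio of -0.07. Cofilin, Cfl1, which severs actin, was at 998.1 and 965.0 CPM, and the small GTPase Rhoa, through which Eph receptors and B-type plexins act on the cytoskeleton, at 653.4 and 651.9 CPM. With the endothelial markers set to 0, their log2 ratios were 0.45 and 0.49, and with the epithelial markers 0.515 and 0.56. Rras, the GTPase whose activity plexins shut off, stood lowest at 94.8 and 56.4 CPM, 1.68-fold lower (1.62 to 1.75), and Rnd2, a small GTPase that binds plexins, was 1.59-fold lower (1.38 to 1.82).

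Of 23 measured genes of the netrin, slit and related guidance families, 4 were at least 2-fold higher (17.4%, background 9.21%) and 2 at least 2-fold lower (8.70%, background 4.9%), with a median log2 ratio of 0.10. Unc5b, a netrin receptor of sprouting endothelium and the most abundant of the list by count, was at 202.4 and 127.4 CPM, 1.59-fold lower (1.55 to 1.63). The netrin receptor Neo1 was at 101.1 and 95.7 CPM. Its log2 ratio of -0.08 turned to 0.48 and 0.41 with the epithelial and endothelial markers set to 0. Slit1, a ligand of Robo receptors, had 230 and 38 counts and was 3.73-fold lower (2.64 to 5.41), and Flrt2, an adhesion protein bound by Unc5 receptors, was at 9.19 and 19.3 CPM, 2.10-fold higher (1.92 to 2.29). The remaining calls rested on low counts, with 17 and 65 for Robo2, 5 and 18 for Ntng1, 13 and 24 for Flrt1, and 20 and 0 for Robo3.

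**Figure D4:**
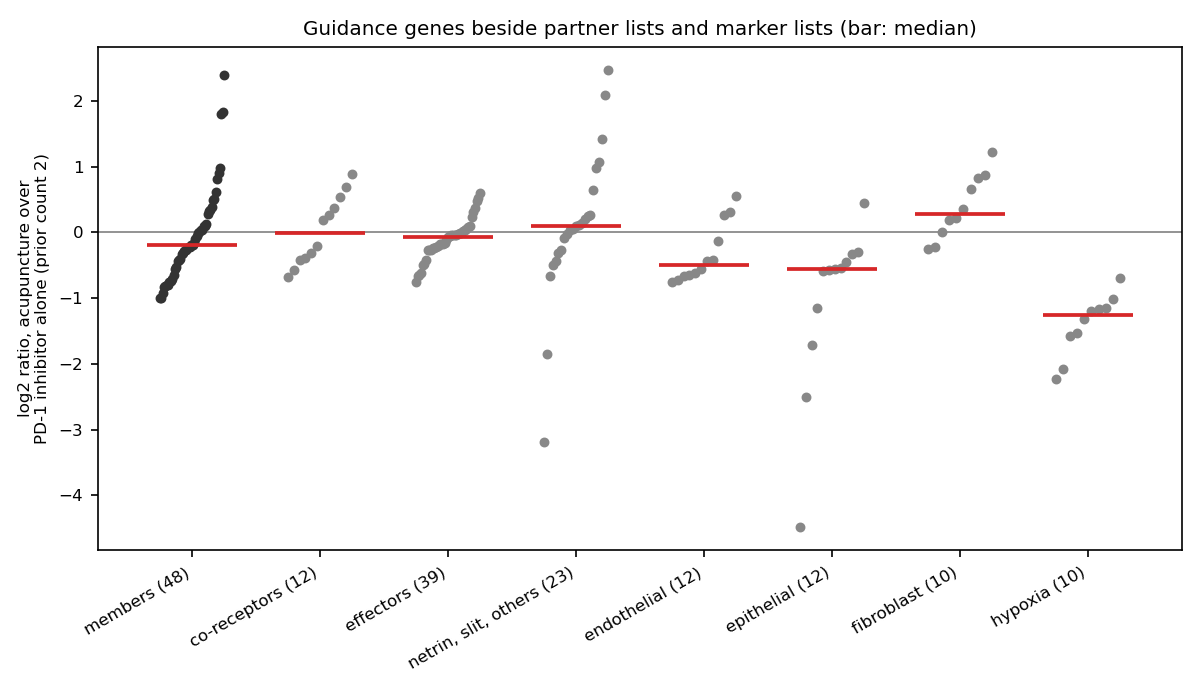
Log2 ratio with a prior count of 2, acupuncture over PD-1 inhibitor alone, for the 48 members, for partner and related guidance lists and for marker lists. Points are genes and red bars are medians. The median of the members, -0.19, lies between that of the effectors (-0.07) and those of the endothelial (-0.49) and epithelial (-0.56) markers.

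Members were also described by abundance. Of 31 members with at least 1000 counts in all, the interval lay below 1 for 22 and above 1 for 5 (71.0% and 16.1%), with a median log2 ratio of -0.23, where among all genes of that abundance the shares were 44.7% and 37.3%. Of 17 members under 1000 counts, it lay below 1 for 3 and above 1 for 8 (17.6% and 47.1%), with a median of 0.28, where the shares among all genes from 20 to under 1000 counts were 19.6% and 31.8%. Across the 48 genes, Pearson's r between log2 level and log2 ratio was -0.31, given as a description, since the genes share both libraries and the level enters the ratio. The split at 1000 counts was chosen after the values were seen.

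Promoter windows of RefSeq were found for 42 of the 48 members, taking the first start listed. A GC box was present in 31 of them (73.8%), in 35.7% of all 32851 windows in the table, and in 46.3% of the first windows of 17492 protein-coding genes. The hypoxia core was present in 10 of 42 (23.8%), beside 19.6% of all windows and 20.7% of those of protein-coding genes. A TATA box (TATAAA, or TTTATA on the other strand) was in 1 of 42, that of Efnb2, beside 13.6% of all windows. Of 22 members with intervals below 1, 4 held the hypoxia core, and of 12 with intervals above 1, 5 held it. These matches describe the letters of these windows.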

How the data were processed

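Messenger RNA of 2 tumour libraries, 1 per group, was analysed. The authors deposited raw read counts per gene symbol, whole numbers with no normalization, per the file headers and values. Builds GRCm39 and mm39 are named in the submitters' processing notes, and no source used here names the aligner, counter or strand setting. The members and gene lists were chosen with earlier results of these data known. Counts were scaled by TMM factors (0.966 for the inhibitor-only library and 1.04 for the acupuncture library, edgeR 4.0.16 in R 4.3.3) computed on the 18687 genes whose counts summed to 20 or more. Ratios carry exact Clopper-Pearson 95% intervals from the binomial split of counts, and log2 ratios a prior count of 2. A gene was called at 2-fold with an interval excluding 1. No test between groups was possible. Coding lengths are the longest coding sequence per gene in GENCODE M21 (GRCm38), so levels per kilobase ignore untranslated exons. Named genes were members past the limit, the 3 highest per family by level per kilobase, the neuropilins, and up to 4 per related list (2 by abundance and 2 by difference); other members are described beyond this rule. Alternatives were total counts, DESeq2 1.42.0 size factors, upper quartile, scaling to the epithelial or endothelial markers, other minimums, prior counts and fold limits, and thinning. The calculation was tested on data simulated with counting error only and with planted ratios past the 2-fold limit. That test covers neither variation between animals nor calls near the limit. Macrophage, neutrophil and Schwann cell markers were also listed. Their median log2 ratios were -0.30, -2.55 and 0.72.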

Additional observations from a re-analysis of the deposited data

How the results depend on the processing

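With 1 library per group, no replicate could be left out. No paired analysis was possible because each group has 1 library. The 12 alternatives were read by 4 summaries of members, the numbers higher and lower, the median log2 ratio and the summed log2 ratio. These summaries changed little under DESeq2 size factors, both other prior counts, both other count minimums and the 2-fold limit without the interval. Much of this was fixed in advance. Calls and sums use no prior count, so the prior counts could move only the median. Dropping the interval could move only the numbers called. DESeq2 size factors nearly repeat the main scaling, with scaled sizes of 102077833 and 102087338 for the inhibitor-only library. The other alternatives gave these values. With total counts, 5 members were higher and 0 lower, beside 10.4% and 4.12% of all genes tested. The log2 ratio of the summed member counts was -0.20 where it had been -0.30. With upper quartile scaling, 4 were higher and 1 lower, beside 9.46% and 4.64% of all genes tested, and the members' sum was at -0.27. With the epithelial markers set to 0, 9 were higher and 0 lower, beside 19.9% and 1.85% of all genes tested. The members' median was then 0.37 and their sum 0.27. With the endothelial markers set to 0, 8 were higher and 0 lower, beside 17.8% and 2.08% of all genes tested. The members' median was then 0.30 and their sum 0.20. At a limit of 1.5-fold, 7 were higher and 10 lower, or 14.6% and 20.8% of members, beside 14.3% and 10.3% of all genes tested. With the deeper library thinned, 3 were higher and 0 lower, beside 9.23% and 4.45% of all genes tested in that setting. The scalings shift all genes alike. The median over all genes moved to 0.10 with total counts, 0.49 with the endothelial and 0.56 with the epithelial markers, and the members' median was 0.19 below that of all genes under each. Among 360 values of the 30 named genes, 29 changed sign, 24 of them under the 2 marker scalings. Of the sign changes, 0 were in genes called at 2-fold. Many of the 360 values could not change sign. The count minimums, the 1.5-fold limit and dropping the interval leave the log2 ratio of a gene as it was. The scalings move ratios upward or hardly at all, so they could not turn genes called higher. Depth limits what can be said of Epha7, Epha8, Ephb1, Plxnb3 and Sema5b, each under 100 counts in all. Epha8, called higher on 74 counts in all, falls out at the minimum of 100, where 2 members were higher.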
